A study of Mus musculus with 3 samples.

Results

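Nicotinic acetylcholine receptors are pentameric cation channels that open when acetylcholine binds, and the genes described here are 7 of their subunits and 3 proteins that modulate them. The members were taken by symbol from a fixed list: the alpha subunits Chrna2, Chrna3, Chrna4, Chrna5 and Chrna7, the beta subunits Chrnb2 and Chrnb4, and the modulators Lynx1, Lypd6 and Ric3. All 10 were present among the 32532 gene symbols of the deposited count tables. In the brain, alpha4 and beta2 form the common heteromer with high affinity for nicotine, alpha5 can join it as an accessory subunit, and alpha7 assembles on its own. Alpha3 and beta4 are best known from autonomic ganglia and the medial habenula. Lynx1 and Lypd6 belong to the Ly6 family of small cysteine-rich proteins at the cell surface, and Ric3 is an endoplasmic reticulum chaperone for receptor assembly. In the cortex, interneurons of the Htr3a class are known to respond to acetylcholine through nicotinic receptors.

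The data are 3 libraries of ribosome-bound RNA from whole cerebral cortex of adult mice that carry Htr3a-Cre (NO176) and the reporter Rosa26-LSL-EGFP/Rpl10a, named Rosa26-LSL-TRAP in the sample titles. In cells that have expressed Cre, the ribosomal protein Rpl10a is made fused to EGFP, and tagged polysomes are captured with antibodies to EGFP (translating ribosome affinity purification, TRAP). All 3 libraries are immunopurified samples of 1 group with the same genotype, so there is no contrast between conditions, and comparisons are between genes within a library. The tag marks every cortical cell in which Cre was active at any time, over all cortical areas and layers. The labels do not say whether the libraries came from separate animals, so p-values describe the spread among these 3 libraries alone, part or all of which may be technical. In the limma tests (a linear model per gene) that spread is pooled in part over all genes tested, which is called moderation. Their SEs and p-values are therefore not those of a single gene's spread. Whole-cortex RNA from before the purification was not used here, and levels are therefore not enrichments. Fewer cells of a type and less RNA per cell cannot be told apart in such bulk samples.

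The summed gene counts were 14383545 in replicate 1, 13951332 in replicate 2 and 14461053 in replicate 3. Of the interneuron markers, 6 of 6 general GABAergic genes stood above 100 TPM (a transcript level corrected for gene length and scaled to a sum of 1000000 per library) in 3 of 3 libraries. Sst, the peptide gene of another interneuron class, reached 8248 ± 552 TPM and the excitatory transporter gene Slc17a7 196 ± 56.1 TPM (SD, n = 3), and both mark cells outside the Htr3a class. Marker lists of astrocytes, microglia, endothelial and mural cells had median levels of 4.72, 2.60, 0.702 and 2.76 TPM. Values after ± are SDs over the 3 libraries throughout.

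The subunits share a fold, and the coding sequence shows where they part. Alpha subunits are defined by 2 adjacent cysteines next to the acetylcholine site, and beta subunits lack them. The stretches below are 13 codons (39 bases, sense strand, 5′ to 3′) just ahead of the first membrane segment, from the longest annotated coding sequence of each gene in GENCODE M21. They are shown because the sums of alpha and beta levels below rest on this division, and capitals mark the adjacent cysteine codons.
Chrna2: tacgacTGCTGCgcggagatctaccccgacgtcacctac
Chrna3: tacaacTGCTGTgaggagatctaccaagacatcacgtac
Chrna4: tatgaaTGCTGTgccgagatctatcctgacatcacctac
Chrna5: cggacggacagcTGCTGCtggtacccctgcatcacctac
Chrna7: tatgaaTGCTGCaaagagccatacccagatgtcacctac
Chrnb2: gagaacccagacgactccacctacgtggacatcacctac
Chrnb4: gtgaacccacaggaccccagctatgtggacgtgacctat

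The first cysteine of the pair was codon 227 in Chrna4, 212 in Chrna7, 222 in Chrna3, 224 in Chrna2 and 234 in Chrna5. In Chrna5, the pair stood nearer to the end of the stretch than in the other alpha genes. Chrnb2 and Chrnb4 held no adjacent cysteine codons there.

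Lynx1 was the most abundant of the 10 genes and Chrna4 the most abundant subunit, while Chrna2 was close to the limit of detection. In order of mean level the genes were Lynx1, Chrna4, Lypd6, Ric3, Chrna7, Chrnb2, Chrna5, Chrna3, Chrnb4 and Chrna2, from 297 ± 21.8 TPM down to 0.342 ± 0.287 TPM. Across the 10 genes the median level was 33.2 ± 4.04 TPM, against 11.1 ± 0.776 TPM over the 16653 genes with a count and a length. In 3 of 3 libraries, 9 of the 10 reached 1 TPM, 6 reached 10 TPM and 2 reached 100 TPM. The corresponding shares of all genes with a count were 73.0%, 47.7% and 10.6%.

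**Figure D1:**
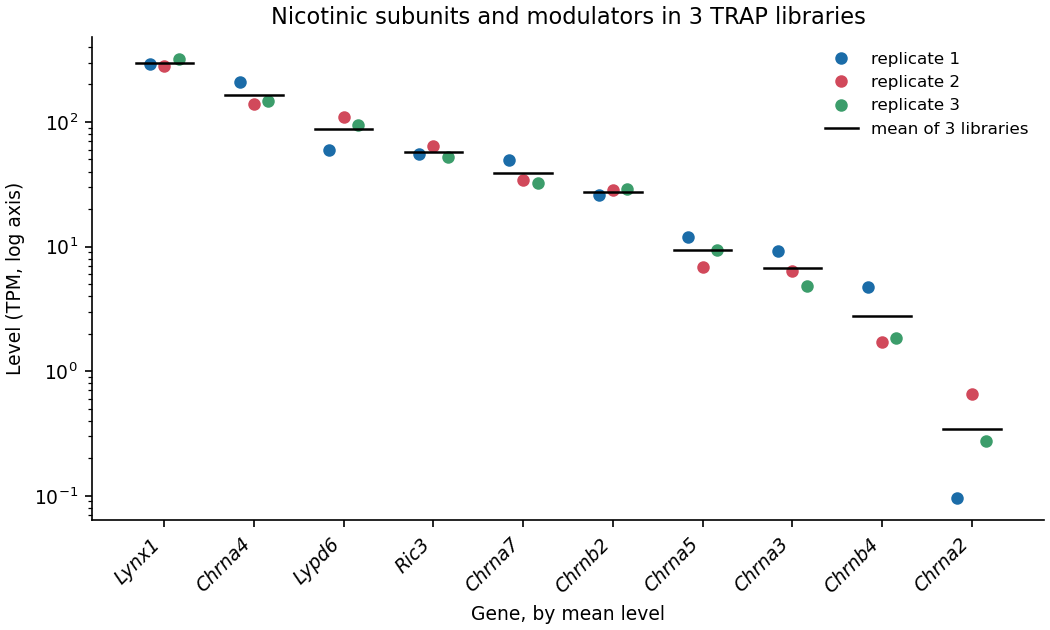
Level in TPM (log axis) of the 10 genes in each library, with points for replicates 1, 2 and 3 and a bar for the mean of 3 libraries. Lynx1 and Chrna4 lie above 100 TPM in every library, and the 3 points of Chrna2 lie below 1 TPM.

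Of the 9 neighbouring pairs in this order, 7 had ranges over the 3 libraries that did not overlap. The ranges of Lypd6 and Ric3 overlapped, and so did those of Chrna5 and Chrna3. Taken within libraries, Lypd6 exceeded Ric3 by 0.11, 0.78 and 0.85 on the log2 scale (0.58 ± 0.41) and Chrna5 exceeded Chrna3 by 0.37, 0.10 and 0.94 (0.47 ± 0.43). The order within each of the 9 pairs was the same in 3 of 3 libraries. It depends in part on the gene length used, as set out further on.

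Chrna4, the principal alpha subunit of cortical heteromers, lies on chromosome 2 from 181018380 to 181043546 on the minus strand (GRCm38). Its counts were 2875, 1970 and 2130, or 208, 139 and 147 TPM in replicates 1, 2 and 3. Replicate 1 was the high library, and Chrna4 ranked at percentiles 91.1 to 94.9 of genes with a count. Chrnb2, the beta subunit that pairs with alpha4, lies on chromosome 3 from 89746195 to 89764632 on the minus strand. Its counts of 601, 665 and 696 gave 26.02, 28.2 and 28.8 TPM. By the coefficient of variation of TPM, at 5.22%, this was the narrowest spread of the 10 genes, though not by the edgeR measure given further on. Chrna4 was thus 7.98, 4.94 and 5.11 times Chrnb2 in the 3 libraries. The log2 difference was 2.55 (SE 0.155; limma, adjusted p = 1.32e-06).

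Chrna7, which forms the homomeric receptor with fast desensitisation, lies on chromosome 7 from 63098692 to 63212569 on the minus strand. Its counts of 616, 436 and 418 gave 49.6, 34.4 and 32.1 TPM, again highest in replicate 1. The ratio of Chrna4 to Chrna7 stayed near its mean of 4.27 ± 0.269 in all 3 libraries. Chrna7 exceeded Chrnb2 in 3 of 3 libraries, by a log2 difference of 0.46 (SE 0.172; limma, adjusted p = 0.0337). The call did not hold without replicate 1 (0.22; limma, adjusted p = 0.124), without moderation of the spread (adjusted p = 0.217), on unshared exons (0.20) or with coding length (0.10). The direction itself was opposite within RefSeq bounds (-0.16; limma, adjusted p = 0.415) and without the length correction, on counts scaled by library total alone. In that last setting Chrna7 was called below Chrnb2 (-0.44; limma, adjusted p = 0.0223). With the longest transcript as length it was called above Chrnb2 (0.75; limma, adjusted p = 0.00256), so the call changes side with the length used.

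Chrna5, the accessory subunit, had 102, 60 and 85 counts, or 11.8, 6.82 and 9.41 TPM. The gene is on chromosome 9, from 54980880 to 55007779 on the plus strand. Its level was 0.0570, 0.0489 and 0.0641 times that of Chrna4 in replicates 1, 2 and 3 (0.0567 ± 0.00760). Chrna2, a subunit known from Martinotti-type Sst cells, lies on chromosome 14 from 66135039 to 66152948 on the plus strand. It had 1, 7 and 3 counts, with exact Poisson 95% intervals of 0.0253 to 5.57, 2.81 to 14.4 and 0.619 to 8.77 counts. These intervals overlap, which is not a test, and Chrna2 was too low to enter the test of variation between libraries given further on. A difference between libraries was therefore not tested for it. The intervals cover counting error only, as do the limits on genes without a count.

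Chrna3 and Chrnb4, which together make the ganglionic receptor, lie beside Chrna5 on chromosome 9. Chrna3 spans 55010111 to 55026562 and Chrnb4 55028154 to 55048779, both on the minus strand, with gaps of 2331 nt between Chrna5 and Chrna3 and 1591 nt between Chrna3 and Chrnb4 in GENCODE. RefSeq, on the same assembly, ends Chrna5 at 55011420, past the start of Chrna3 at 55010117, an overlap of 1304 nt between opposite strands. The strand setting of the counting is unknown, so reads from that stretch cannot be assigned, and the values of both genes are uncertain to that extent. Chrna3 had 133, 94 and 74 counts, or 9.17, 6.34 and 4.87 TPM. Chrnb4 had 49, 18 and 20 counts, or 4.78, 1.72 and 1.86 TPM, and replicate 1 lay far above the others.

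Set against Chrna3, Chrnb4 was lower by a log2 difference of -1.36 (SE 0.479; limma, adjusted p = 0.00640), in 3 of 3 libraries. Chrna5 and Chrna3 differed by 0.47 (SE 0.409; limma, adjusted p = 0.288), with the same sign in 3 of 3 libraries but the opposite sign with coding length (-0.16) or none (-0.27). Of the 2 genes compared, 1 was therefore called below Chrna3, and over all genes tested 12.3% were below it. The Chrnb4 call did not hold without replicate 2 (-1.13; limma, adjusted p = 0.248) or without moderation of the spread (adjusted p = 0.0617).

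As shares of the summed TPM of the 7 subunits, Chrna4 took 65.6% ± 1.55, Chrna7 15.4% ± 0.928 and Chrnb2 11.4% ± 2.59. Chrna5, Chrna3 and Chrnb4 took 3.72% ± 0.540, 2.68% ± 0.445 and 1.06% ± 0.425, and Chrna2 0.152% ± 0.138. Without the length correction Chrnb2 took 18.2%, above Chrna7 at 13.2%, and Chrna5 took 2.22%. Within RefSeq bounds Chrnb2 (15.98%) was also above Chrna7 (14.1%). The Chrna2 share was 0.0767% without replicate 2. The 5 alpha subunits summed to 278, 188 and 194 TPM and the 2 beta subunits to 30.8, 29.9 and 30.6 TPM. On merged exons, alpha exceeded beta 9.04-fold in replicate 1 and 6.27-fold and 6.32-fold in the others, and the difference between libraries lay in the alpha sum. This ratio was not computed under the other lengths, where Chrnb2 took a larger share, from 12.3% to 18.2%.

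**Figure D2:**
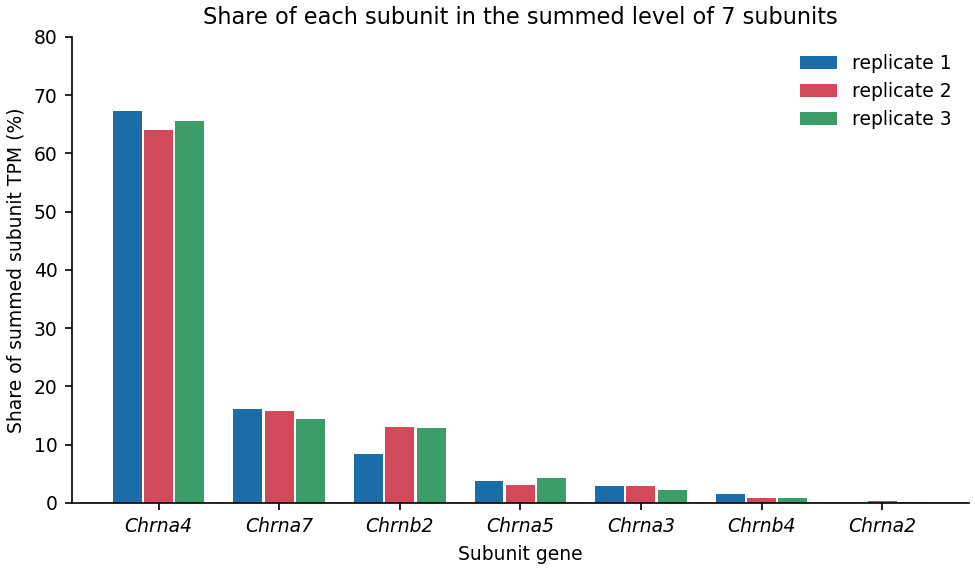
Share of each subunit gene in the summed TPM of the 7 subunits (%), with a bar for each library. Chrna4 holds between 64.1% and 67.2% in every library, and the Chrnb2 bar of replicate 1, at 8.42%, is lower than the other two.

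The 3 modulators summed to 405, 453 and 469 TPM, against 309, 217.5 and 224 TPM for the 7 subunits. Lynx1, which binds nicotinic receptors and dampens their response, lies on chromosome 15 from 74747852 to 74753046 on the minus strand. Its counts were 3725, 3676 and 4334, or 290, 280.2 and 322 TPM, at percentiles 96.4 to 97.0 of genes with a count. Lynx1 was 1.40, 2.01 and 2.19 times Chrna4 and 0.938, 1.29 and 1.44 times the sum of the 7 subunits. Its own coefficient of variation was 7.33%, and these ratios were lowest in replicate 1, the library with the highest Chrna4.

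Lypd6, another Ly6 protein reported to act on nicotinic receptors, lies on chromosome 2 from 50066429 to 50193569 on the plus strand. It had 615, 1148 and 1020 counts, or 59.8, 109 and 94.7 TPM. Replicate 1 was the low library here, the opposite of Chrna4. Ric3, which aids assembly of alpha7 receptors in particular, lies on chromosome 7 from 109034312 to 109083331 on the minus strand. Its counts of 1312, 1533 and 1294 gave 55.6, 63.6 and 52.3 TPM, which was 1.12, 1.85 and 1.63 times Chrna7, and 1.74% of its exon bases (149 nt) are shared with Tub. Both were below Lynx1, Lypd6 by a log2 difference of -1.80 (SE 0.175; limma, adjusted p = 1.58e-06) and Ric3 by -2.38 (SE 0.147; limma, adjusted p = 2.75e-08), as were 94.0% of all genes tested.

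Against Chrnb2, 5 of the other 9 genes were higher (Chrna4, Chrna7 and the 3 modulators) and 4 were lower (Chrna2, Chrna3, Chrna5 and Chrnb4), with the same sign in 3 of 3 libraries for each. Over all genes tested, 38.2% were above and 48.5% below Chrnb2, so most genes differ from this reference and a call by itself says little. The sizes separate the genes: Lynx1 stood at a log2 difference of 3.42 (SE 0.112; limma, adjusted p = 4.78e-08) and Lypd6 at 1.62 (SE 0.158; limma, adjusted p = 1.83e-05). Ric3 stood at 1.04 (SE 0.126; limma, adjusted p = 6.57e-05). On the low side, Chrna5 stood at -1.59 (SE 0.219; limma, adjusted p = 1.47e-04), Chrna3 at -2.06 (SE 0.247; limma, adjusted p = 6.21e-05) and Chrnb4 at -3.42 (SE 0.368; limma, adjusted p = 3.18e-05). Without moderation of the spread, 8 of the 9 calls against Chrnb2 held. Their adjusted p-values were then larger, from 0.00745 for Lynx1 to 0.0395 for Chrna5 (limma's linear model), and 0.0185 for Chrna4.

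**Figure D3:**
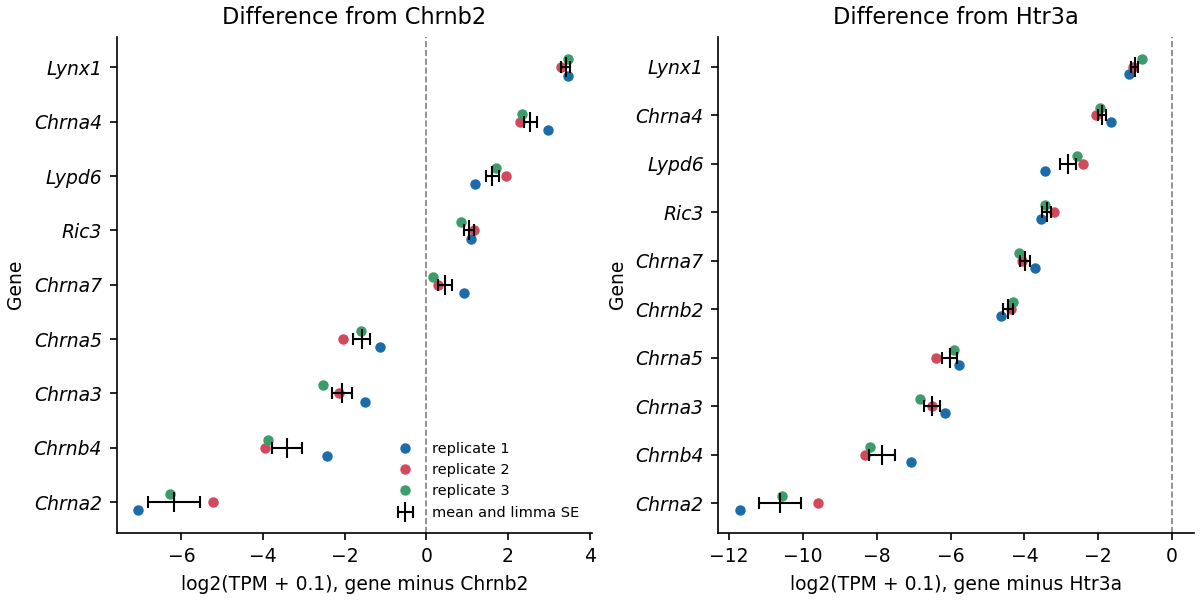
Difference in log2(TPM + 0.1) of each gene from Chrnb2 (left) and from Htr3a (right), with points for the 3 libraries and the mean with its limma standard error. Against Chrnb2, Lynx1 at 3.42 and Chrna4 at 2.55 lie farthest to the right, and every gene lies left of Htr3a, though Chrna7 against Chrnb2 and Lynx1 against Htr3a change side under other lengths.

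Htr3a, the gene of the driver, encodes a serotonin-gated channel of the same Cys-loop receptor superfamily as the nicotinic subunits. It stood at 602 ± 46.1 TPM. All 10 genes lay below it, as did 98.0% of all genes tested. Lynx1 came nearest at a log2 difference of -1.02 (SE 0.101; limma, adjusted p = 1.34e-04), followed by Chrna4 at -1.89 (SE 0.111; limma, adjusted p = 1.06e-05). Chrnb2 lay at -4.44 (SE 0.133; limma, adjusted p = 1.32e-06). For Lynx1 the direction was opposite with no length correction (0.14) and with coding length (2.22), where 348 of 4662 exon nt are coding in Lynx1 and 1467 of 2083 in Htr3a. Lypd6 was not called below Htr3a with coding length (-0.46; limma, adjusted p = 0.0898).

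Between libraries, 5 subunits moved in the same direction and Chrnb2 did not. With TMM scaling (trimmed mean of M-values) of the library sizes, replicate 1 stood above its expected count 1.76-fold for Chrnb4, 1.38-fold for Chrna3, 1.31-fold for Chrna7 and 1.29-fold for Chrna5 and Chrna4. Lypd6 had 0.690 of its expected count in replicate 1 and 1.24 in replicate 2. Chrnb2 stayed between 0.956 and 1.02 of its expected counts. Among the 9 members that averaged 1 CPM (counts per 1000000 gene counts) or more, 8 varied beyond counting error (chi-square test, adjusted p from 5.13e-58 for Chrna4 to 0.00308 for Chrna5), against 74.3% of all genes. Chrnb2 was the exception (chi-square of 1.83, adjusted p = 0.436), and it did vary by this test when libraries were scaled by their totals (adjusted p = 0.0279). The test sets the spread against counting noise alone, and most genes exceed that. The biological coefficient of variation from edgeR was 17.3% for Chrna4, 20.7% for Chrna7 and 20.3% for Lypd6. All lay below the median of 22.4% over all genes. Chrna3 and Chrna5, at 29.7% each, lay between that median and the upper quartile of 30.9%, and Chrnb4 lay above it at 45.4%. Chrnb2 had 16.3% by this measure, close to Chrna4, though their chi-squares were 1.83 and 270.6. The measure is therefore not a gene's own spread alone, and a place below the median says little about a single gene.

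**Figure D4:**
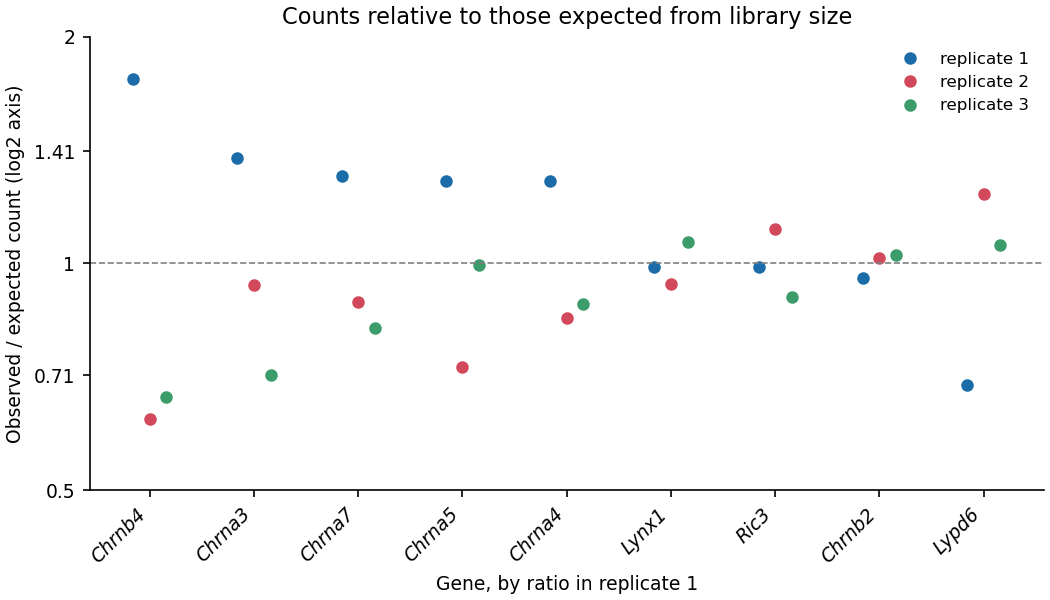
Observed over expected count (log2 axis) in each library for the 9 members averaging 1 CPM or more, with expected counts from TMM-scaled library sizes and a dashed line at 1. Chrnb4, Chrna3, Chrna7, Chrna5 and Chrna4 have their highest point in replicate 1, and Lypd6 has its lowest there at 0.690.

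Of the 9 members tested, 5 varied and were highest in replicate 1, all of them subunits, against 29.6% of all genes that did the same. Replicate 1 over the other 2 libraries was 2.73 for Chrnb4, 1.68 for Chrna3, 1.53 for Chrna7 and 1.49 for both Chrna5 and Chrna4. Over 12949 genes the middle of this ratio was 0.982, with 0.748 and 1.199 at the quartiles and 1.63 at the 95th percentile. Between replicates 2 and 3 alone, 3 of the 9 genes varied beyond counting error (Lynx1, Lypd6 and Ric3), against 42.5% of all genes, and none of the 6 subunits tested did. The differences in Chrna3, Chrna4, Chrna5, Chrna7 and Chrnb4 between libraries thus rest on replicate 1, and that of Chrna5 also on replicate 2 (adjusted p = 0.112 by chi-square test without it).

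Marker levels of several cell types also stood apart in replicate 1. The 6 Htr3a class markers (all detected) summed to 1810 TPM there, against 1322 and 1252 TPM. The 5 oligodendrocyte markers, all at 1 TPM or more in 3 of 3 libraries, summed to 335, 215 and 189 TPM, while the oligodendrocyte gene Mbp stayed at 37.5, 37.1 and 37.3 TPM. The type lists within or beside the Htr3a class did not all follow it. The Vip type list summed to 2719, 2328 and 2816 TPM, the Lamp5/Ndnf type list to 3323, 3918 and 4096 TPM and the Sst type list to 9381, 8879 and 8193 TPM in replicates 1, 2 and 3. Vip (1220, 884 and 1021 TPM) was highest in replicate 1, while Calb2 (105, 164 and 185 TPM) and Crh (128, 135 and 180 TPM) were lowest there. Tac2 and Penk, also of the Vip type list, were lowest in replicate 2. Sst itself (8731, 8368 and 7647 TPM) made up most of the Sst type sum, and Calb1 of that list (48.4, 64.1 and 51.3 TPM) was lowest in replicate 1. Npy (2725.5, 3382.7 and 3544.2 TPM) made up most of the Lamp5/Ndnf sum. It and Lamp5 (202, 241 and 260.5 TPM) were lowest in replicate 1. The other genes of that list, Kit (266, 194 and 196 TPM), Ndnf (61.6, 49.6 and 38.7 TPM) and Reln (68.0, 51.1 and 56.7 TPM), were highest there. The Pvalb type list summed to 456, 549 and 489 TPM. Within it Pvalb itself (48.4, 105 and 110.4 TPM) and Tac1 (4.38, 29.7 and 18.4 TPM) were lowest in replicate 1, while the channel gene Kcnc1 was highest there (293, 267 and 250.5 TPM). The 7 excitatory markers summed to 791, 852 and 1012 TPM. Slc17a7 (158, 170 and 260.5 TPM) and the synaptic gene Nrgn (252, 337 and 404.5 TPM) were lowest in replicate 1, and the transcription factor genes Tbr1 (102, 86.3 and 86.5 TPM) and Fezf2 (106, 92.4 and 80.3 TPM) were highest there. The part of these cell types in the subunit differences was not tested.

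How the level of each gene compares with Chrnb2 also depends on its assumed length. The merged exons of Chrnb2 cover 8380 nt in GENCODE, of which 16.3% (1365 nt) are shared with Adar on the opposite strand, and RefSeq ends the gene at 89753448, which leaves 5420 nt. With exons inside RefSeq bounds, Chrna4 was 4.11 ± 1.17 times Chrnb2, in place of 6.01 ± 1.71 times. The log2 differences from Chrnb2 were then 0.995 for Lypd6 and 0.42 for Ric3 (limma, adjusted p = 0.0136), and that of Chrna7 turned to -0.16. The longest annotated coding sequence of Chrnb2 has 2181 nt, against 1401 to 1923 nt in the other subunits. A shorter one would lower every coding-length difference from Chrnb2, that of Chrna7 included. With coding length the log2 differences were 5.22 for Lynx1, 2.54 for Lypd6 and 2.06 for Ric3, and Chrna4 fell below Lypd6 and Ric3 in the order of levels. Lynx1 was then 9.57 times Chrna4, against 1.73 to 1.97 times under the other 5 choices. Chrna4 stayed above Chrnb2 under all 6 length choices, by log2 differences from 1.81 to 2.55, and Chrna5, Chrna3 and Chrnb4 stayed below it.

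**Figure D5:**
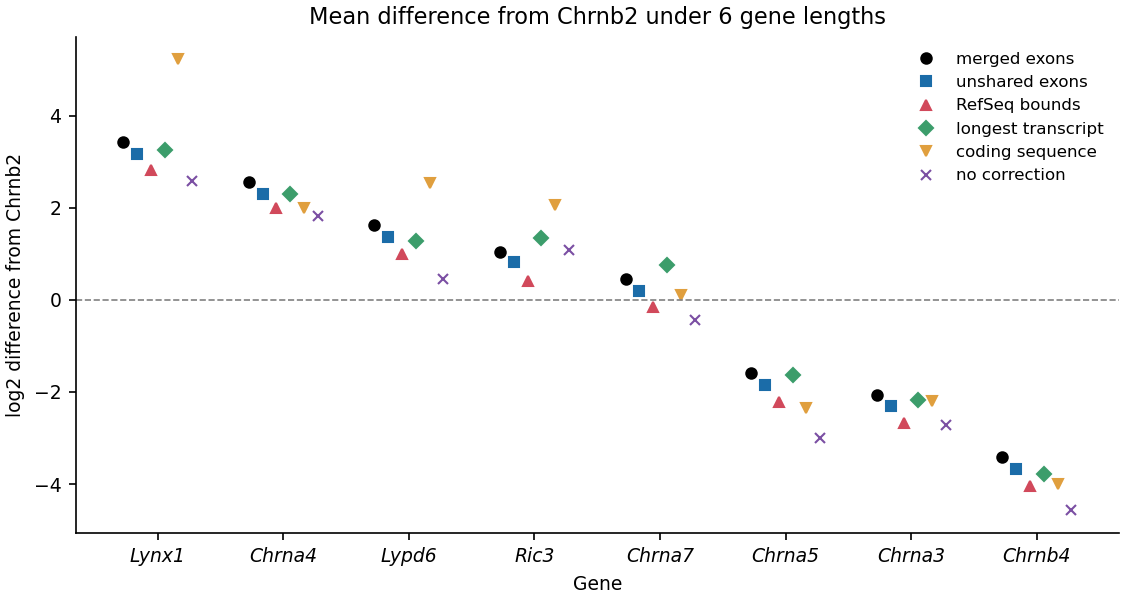
Mean log2 difference from Chrnb2 of 8 genes under 6 choices of gene length (merged exons, unshared exons, exons within RefSeq bounds, longest transcript, coding sequence and no correction). Chrna7 falls on both sides of 0, from -0.44 to 0.75, and the other 7 genes keep their side.

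The remaining genes of the acetylcholine system give the setting. Of the 9 other nicotinic subunit genes, 5 had 0 counts in 3 of 3 libraries: Chrna6, Chrna9 and Chrna10, and the muscle subunits Chrnd and Chrng. For a count of 0 a fixed upper limit of 3 counts was taken, which is 0.209, 0.215 and 0.207 CPM in replicates 1, 2 and 3. That limit was not computed in the way of the exact Poisson intervals given for Chrna2. Another 2, Chrnb1 and Chrnb3, reached 1 TPM in 3 of 3 libraries, at 4.37 ± 1.52 and 2.27 ± 0.652 TPM. The beta3 gene was therefore detected at a level near that of Chrnb4.

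Among 9 further Ly6 and assembly genes, 4 reached 10 TPM in 3 of 3 libraries: Ly6e at 115 ± 7.71 TPM, Tmem35 at 51.0 ± 17.0 TPM, Lypd6b at 20.4 ± 7.73 TPM and Lypd1 at 19.0 ± 8.58 TPM. Tmem35 encodes a chaperone needed for alpha7 receptors, also known as NACHO, and its level exceeded that of Ric3 in replicate 3 alone (36.3, 47.1 and 69.7 TPM). Lypd6b, a close relative of Lypd6, had 13.2, 19.2 and 28.6 TPM and was likewise lowest in replicate 1. Slurp1 and Psca had 0 counts in 3 of 3 libraries.

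Genes that make, move or break down acetylcholine were present at low levels. Choline acetyltransferase, Chat, stood at 11.3, 5.74 and 9.86 TPM, and the vesicular transporter gene Slc18a3, which lies within Chat, at 8.04 ± 0.330 TPM. The choline transporter gene Slc5a7 ranged from 10.7 to 26.9 TPM, highest in replicate 1, and acetylcholinesterase, Ache, from 10.6 to 25.4 TPM, lowest in replicate 1. Of the 7 genes in this list, 2 were at 10 TPM or more in 3 of 3 libraries, Slc5a7 and Ache.

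The muscarinic receptors, which respond to acetylcholine through G proteins, had a median of 14.4 ± 1.67 TPM over 5 genes. Chrm1 led at 66.0 ± 4.38 TPM, which lies between the means of Lypd6 and Ric3, and Chrm3 followed at 26.4 ± 5.85 TPM. Chrm4, Chrm2 and Chrm5 stood at 14.4 ± 1.67, 5.05 ± 0.689 and 2.23 ± 1.01 TPM. Htr3b, the other serotonin-gated subunit, stood at 14.7 ± 4.24 TPM, so Chrna4 and Chrna7 were above it and Chrna3 and Chrnb4 below it in every library.

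Among 99 listed genes outside the 10, the gene nearest in level over the 3 libraries is given for the 4 members with the closest match. Ric3 lay closest to the calcium-binding protein gene Calb1, with a root mean square difference of 0.116 on the log2(TPM + 0.1) scale, and Chrna5 to Chat, at 0.151. Chrnb2 lay closest to Npas1, a transcription factor gene from the Htr3a class list, at 0.195. Chrnb4 lay closest to the mural marker gene Acta2, at 0.204, and both were highest in replicate 1. Each is a likeness of level in 3 libraries and no more.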

How the data were processed

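Ribosome-bound RNA was measured in 3 immunopurified libraries of 1 group. The authors deposited raw read counts for each gene symbol, as whole numbers. The submitters' processing notes list STAR 2.0.0e, HTSeq and mm10 with no roles. The annotation, counting mode and strand setting were not given in the sources used here. The 5 lines that name no gene (25.5%, 25.1% and 28.8% of records in replicates 1, 2 and 3) stayed out of totals. GENCODE M21 (GRCm38, the assembly of mm10) gave positions and lengths: 23155 of 32532 symbols matched directly, 737 by an older name in RefSeq's table and 8640 not at all. TPM was computed here from the deposited counts and merged exon length. Coding stretches are open reading frames of the annotated coding length in GENCODE transcripts.

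For each reference gene (Chrnb2, Chrna3, Lynx1, Htr3a), differences in log2(TPM + 0.1) within libraries were fitted across all 12456 genes with a length and a mean of at least 1 CPM (members kept at any level) with limma 3.58.1, two-sided, with Benjamini-Hochberg adjustment over all genes and a threshold of 0.05. All differences in a fit share the reference gene's values. Variation between libraries was tested with a chi-square test on 12949 genes, with TMM scaling from edgeR 4.0.16 and DESeq2 1.42.0 size factors as an alternative. No group contrast exists for a count model. Both tests were also run on simulated data, with outcomes not reported here. The simulation for the chi-square test had counting noise as its only noise, so it cannot show how that test behaves where genes vary beyond it. Other software was matplotlib 3.10.9, SciPy 1.17.1, NumPy 2.4.6 and pandas 2.3.3 under Python 3.11.15, and R 4.3.3. The members, lists and tests were chosen with earlier results of these data known. Named genes are all members, listed acetylcholine genes at 10 TPM or more on average or at 0 counts, Chrm1 to Chrm5, and the listed gene nearest in level to 4 members; others named were chosen after their values were seen.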

Additional observations from a re-analysis of the deposited data

How the results depend on the processing

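Alternatives covered gene length, pseudocount 1, all genes with a count, TMM scaling, an unmoderated fit and leaving out each library. The use of RefSeq bounds was chosen after seeing the data. Of 276 re-estimated gene differences, 263 kept their direction and their side of the threshold, 7 lost their call and 6 changed sign. The sign changes were Chrna7 minus Chrnb2 without length correction (-0.44) and with RefSeq bounds (-0.16), Chrna5 minus Chrna3 with coding length (-0.16) and without length correction (-0.27), and Lynx1 minus Htr3a with coding length (2.22) and without length correction (0.14). The count of genes called against Chrna3 was 1, fell to 0 in the unmoderated fit (limma's linear model without moderation, where 1 of 2 had an unadjusted p under 0.05) and ranged from 0 to 1 when 1 library was left out, with 0 without replicate 2 (limma, where 0 of 2 had an unadjusted p under 0.05). The count that varied between libraries went from 8 to between 3 and 8 when 1 library was left out, with 3 without replicate 1. Shares of the subunit sum moved beyond 1 SD in 14 of 56 cases, all of them under another length. The cause of these changes beyond the length itself was not tested. No paired analysis was possible because there is 1 group. Depth limits Chrna2, whose counts of 1 to 7 allow no statement on differences between libraries.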
